A study of Mus musculus with 12 samples.

Results

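The genes described here are 6 members of the fibroblast growth factor (FGF) system in the mouse retina: the ligand genes Fgf1, Fgf2 and Fgf9 and the receptor genes Fgfr1, Fgfr2 and Fgfr3. They were taken by name from a table of 57073 gene models, in which each of these names has 1 row. RNA sequencing of poly-A transcripts was done on retina of C57BL/6 mice at postnatal day 17, in 12 libraries. The OIR (oxygen-induced retinopathy) group, with 75% oxygen in its labels, has 6 libraries, and the group of mice of the same age kept in normoxic air has 6. In this model, high oxygen removes part of the young retinal capillary bed, and once the mice breathe room air again the retina lacks oxygen and abnormal vessels grow. The labels give neither the days of exposure nor the number of animals in a library, so the p-values rest on the variation among libraries, and part of it may be technical.

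FGF ligands are secreted proteins that bind heparan sulfate on the cell surface and in the matrix, and together with it they bring pairs of tyrosine kinase receptors into contact. The activated receptor phosphorylates docking proteins and drives the RAS-ERK cascade, which switches on transcription factors of the ETS family and, in the same cells, its own inhibitors, the Sprouty, Spred and dual-specificity phosphatase genes. In the rodent retina, Fgf2 is known for rising in photoreceptors and Müller glia after injury, and FGF ligands are known to act on neurons, glia and vessels. The receptors exist as splice forms that bind different ligands, and counts per gene do not separate them.

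Libraries held 17366045 to 21594618 counts in OIR and 17361979 to 19390627 in normoxic retinas. The summed level of 6 rod genes was 8340 to 9200 FPKM (fragments per length of gene and per library depth) in OIR and 7710 to 8560 FPKM in normoxic libraries. Normoxic replicates 1 to 3 stood apart from normoxic replicates 4 to 6 on the second principal component, at 12.5 to 15.2 against -18.5 to -13.1 (13.6% of the variance). The labels do not say what the numbers mark, so results are also given within numbers 1 to 3 and within 4 to 6 where a call was lost in a set or the effect differed between the sets. On the third component OIR replicate 6 was the lowest library, at -23.4. In bulk retina, fewer cells of a type and less RNA per cell cannot be told apart.

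The sequence just before the start of transcription is shown for 3 genes that the results turn on: Fgf2, the ligand gene that rose, Fgf9, a ligand gene that fell, and Spry1, a feedback inhibitor gene that rose and lies 229839 bases beyond the end of Fgf2. Each is the 250 bases upstream of the start in RefSeq (build GRCm38.p6), at chr3:37348403-37348652, chr14:58072436-58072685 and chr3:37639697-37639946, all on the plus strand, read 5′ to 3′. Capitals mark the core of the hypoxia response element, ACGTG or GCGTG on either strand.
Fgf2: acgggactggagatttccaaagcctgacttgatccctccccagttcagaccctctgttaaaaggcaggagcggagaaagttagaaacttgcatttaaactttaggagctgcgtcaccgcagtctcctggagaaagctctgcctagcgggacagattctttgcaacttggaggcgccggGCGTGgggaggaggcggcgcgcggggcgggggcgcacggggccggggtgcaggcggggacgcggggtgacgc
Fgf9: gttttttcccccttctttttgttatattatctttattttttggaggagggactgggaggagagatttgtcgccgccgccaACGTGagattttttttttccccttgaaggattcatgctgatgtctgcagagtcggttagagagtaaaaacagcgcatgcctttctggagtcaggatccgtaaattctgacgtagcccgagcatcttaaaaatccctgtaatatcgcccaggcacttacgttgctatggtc
Spry1: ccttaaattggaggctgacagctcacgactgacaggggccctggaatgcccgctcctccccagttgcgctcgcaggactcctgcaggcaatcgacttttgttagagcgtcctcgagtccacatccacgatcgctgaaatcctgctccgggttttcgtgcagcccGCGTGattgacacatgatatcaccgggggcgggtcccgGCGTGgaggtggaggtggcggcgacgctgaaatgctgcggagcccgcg
The Fgf2 window held 1 such core, starting 72 bases before the start, the Fgf9 window 1 at 170 bases and the Spry1 window 2 at 86 and 48 bases. Of 32851 promoter windows of the same length, 38.6% held at least 1. None of the 3 windows held the AP-1 motif TGANTCA or the STAT motif TTCNNNGAA, which 6.75% and 7.02% of all windows hold. The Sp1 motif GGGCGG was found once in the Fgf2 window and once in that of Spry1, and was not found in that of Fgf9 (32.7% of all windows). These matches are descriptions of the letters, and binding was not measured. The same table had entries for 4 of the 6 members. Fgfr3, whose level did not differ by the test, held 4 cores in the window starting at 33721474 and 0 in that starting at 33722056. The window of Fgfr2, a receptor gene that rose, held 0.

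Fgf2 was the member with the largest difference. Its level was 57.03 to 136 CPM (counts scaled to a library total of 1e6), with a median of 82.8 CPM, in OIR libraries, against 13.3 to 16.5 CPM, median 14.2 CPM, in normoxic libraries. Every OIR library lay above every normoxic one, and the lowest OIR library held more than 3 times the highest normoxic one. The mean was 90.1 ± 32.8 CPM in OIR and 14.6 ± 1.28 CPM in normoxic retinas (SD, n = 6 each), a 6.17-fold rise (log2 2.63 ± 0.18 SE, edgeR adjusted p = 6.4e-09). Fgf2 ranked 111 of 18275 tested genes by fold change, so 0.607% of the genes had a fold change at least as large, and 4.90% passed the test with a rise of at least 2-fold. Over all tested genes, 31.0% passed the adjusted p of 0.05, 16.2% in the direction higher in OIR and 14.8% lower.

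**Figure D1:**
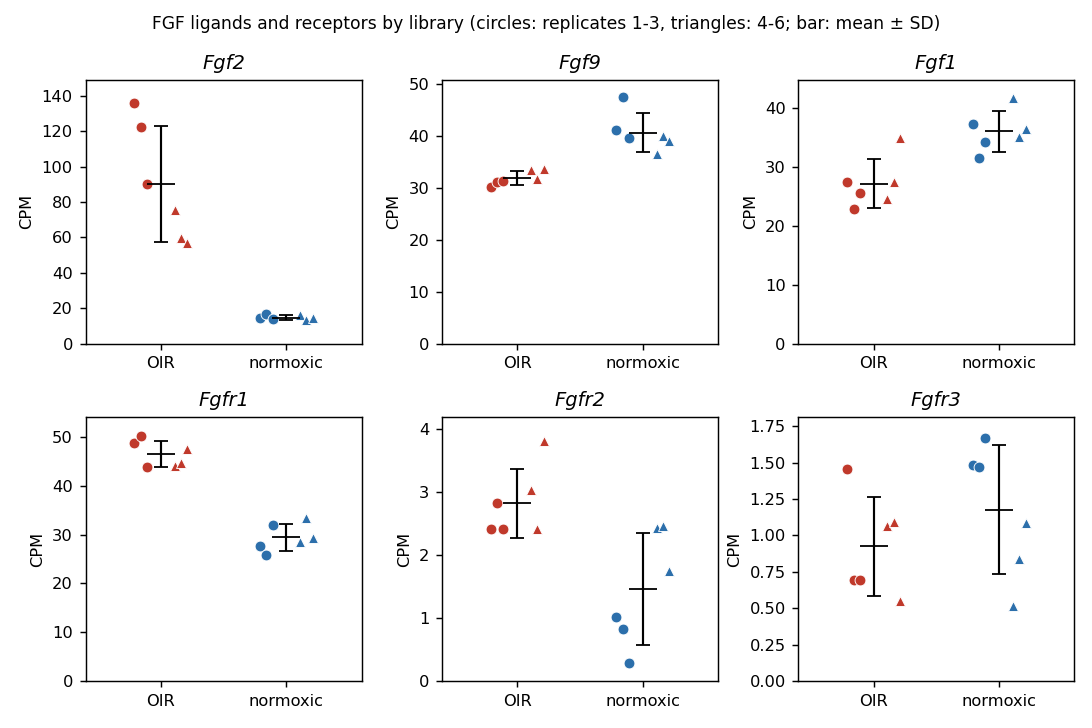
Level of each of the 6 genes in every library, in CPM on linear axes that start at 0, with OIR libraries in red on the left and normoxic libraries in blue on the right of each panel. Circles are replicates 1 to 3, triangles replicates 4 to 6, and the bars give mean ± SD over 6 libraries. Fgf2 and Fgfr1 separated fully upwards and Fgf9 fully downwards, while the groups overlapped in Fgf1, Fgfr2 and Fgfr3.

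The Fgf2 rise was larger in one set of OIR libraries than in the other. OIR replicates 1 to 3 had 90.2 to 136 CPM and OIR replicates 4 to 6 had 57.03 to 75.5 CPM, whereas both normoxic sets lay between 13.3 and 16.5 CPM. In order of replicate number the OIR libraries had 136, 122, 90.2, 75.5, 59.6 and 57.03 CPM. The level thus declined along the numbers, without a clear step between the sets. Within numbers 1 to 3, where 39.0% of the genes tested there passed, Fgf2 was 7.81-fold higher in OIR (edgeR adjusted p = 1.7e-14). Within numbers 4 to 6, where 20.0% passed, it was 4.49-fold higher (6.6e-10). The log2 effect differed by -0.80 ± 0.18 (SE; numbers 4 to 6 minus 1 to 3) with an edgeR adjusted p of 0.0083, where 8.21% of all genes passed the same test. With a robust dispersion estimate this difference no longer passed (adjusted p = 0.0986). The summed level of 5 gliosis genes, all 5 of which rose and none of which was at 0, moved with it: 228 to 298 FPKM in OIR replicates 1 to 3 and 165 to 218 FPKM in OIR replicates 4 to 6, against 51.4 to 61.8 FPKM in normoxic libraries. Its part in the Fgf2 values was not tested.

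Fgf2 (ENSMUSG00000037225) lies on chromosome 3, from 37402495 to 37464257 on the plus strand in build GRCm39, and overlaps other gene models at both ends. At its start lies Fgf2os, an antisense transcript (chosen after its values were seen), with 13.0 to 31.5 CPM in OIR and 1.63 to 2.66 CPM in normoxic libraries. Fgf2os was 9.63-fold higher in OIR (edgeR adjusted p = 1.5e-09), and like Fgf2 it was higher in OIR replicates 1 to 3 (mean 26.7 CPM) than in OIR replicates 4 to 6 (mean 15.97 CPM). At the other end is Nudt6, the antisense partner known for overlapping the 3′ end of Fgf2, with 1.01 to 2.53 CPM in OIR and 0.545 to 1.44 CPM in normoxic libraries. It did not pass the test (log2 fold change 0.65 ± 0.29 SE, edgeR adjusted p = 0.103). The sources used here do not give the strand setting of the counting, so reads of Fgf2 and its antisense partners cannot be told apart where they overlap. Fgf2 had 9990 counts in OIR against 161 for Nudt6 and 2369 for Fgf2os, and in normoxic libraries 1616 against 103 and 245.

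Further along the same chromosome, between Fgf2 and Spry1, lies Spata5, which encodes an ATPase of the AAA family (chosen after its values were seen). It rose by 0.31 ± 0.09 (log2, SE), with 16.2 to 19.7 CPM in OIR and 11.1 to 17.0 CPM in normoxic libraries and an edgeR adjusted p of 0.014. The difference of Spata5 was thus far smaller than that of Fgf2 or of Spry1, and its groups overlapped. Within numbers 4 to 6 the call of Spata5 was lost (log2 fold change 0.26, edgeR adjusted p = 0.125). In the same region the gene model Gm43488, also chosen after its values were seen, rose by 1.08 on the log2 scale (edgeR adjusted p = 4.6e-04).

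Both other ligands were lower in OIR. Fgf9 (ENSMUSG00000021974, chromosome 14, 58308004 to 58350177), which encodes a secreted FGF made by neurons, had 30.3 to 33.6 CPM, median 31.5 CPM, in OIR libraries, against 36.5 to 47.6 CPM, median 39.9 CPM, in normoxic libraries. The groups did not overlap, and the OIR libraries lay closer together than the normoxic ones. The mean was 31.9 ± 1.35 CPM in OIR and 40.7 ± 3.74 CPM in normoxic retinas (SD, n = 6 each), a log2 fold change of -0.34 ± 0.06 (SE, edgeR adjusted p = 4.3e-04). Within numbers 4 to 6 alone Fgf9 did not pass (log2 fold change -0.20, adjusted p = 0.0685), while within 1 to 3 it fell by 0.47 (4.8e-05). This difference between the sets did not pass its own test (0.27 ± 0.11 SE, adjusted p = 0.13).

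Fgf1 (ENSMUSG00000036585, chromosome 18, 38971726 to 39062525), which encodes the acidic FGF that binds every FGF receptor, had 22.8 to 34.9 CPM, median 26.5 CPM, in OIR libraries, against 31.5 to 41.7 CPM, median 35.7 CPM, in normoxic libraries. The ranges overlapped because OIR replicate 6 stood at 34.9 CPM, above the other OIR libraries, which reached at most 27.5 CPM. The log2 fold change of Fgf1 was -0.40 ± 0.10 (SE; edgeR adjusted p = 0.0036) and the call held within numbers 1 to 3 (-0.44, adjusted p = 4.3e-04) and within 4 to 6 (-0.36, 0.0408). Among the members, 5 of 6 passed the test, 3 higher and 2 lower, where 31.0% of all tested genes passed, 16.2% higher and 14.8% lower. In 3 of the 6 the groups did not overlap, 2 with OIR above and 1 below. Over all tested genes this held for 16.4%, with OIR above in 9.12% and below in 7.31%.

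Fgfr1, the highest per length of the 3 receptor genes Fgfr1, Fgfr2 and Fgfr3, rose. Its level (ENSMUSG00000031565, chromosome 8, 26003670 to 26065734) was 43.9 to 50.3 CPM, median 46.1 CPM, in OIR libraries, against 25.8 to 33.5 CPM, median 29.0 CPM, in normoxic libraries. All OIR libraries lay above all normoxic ones. The mean was 46.5 ± 2.73 CPM in OIR and 29.5 ± 2.79 CPM in normoxic retinas (SD, n = 6 each), a 1.59-fold rise (log2 0.67 ± 0.07 SE, edgeR adjusted p = 3.9e-07). Fgfr1 was higher within both sets of numbers, 1.67-fold in 1 to 3 and 1.51-fold in 4 to 6, a difference that did not pass its own test (-0.14 ± 0.12 SE, adjusted p = 0.519). Markers of several cell types also rose, those of vessels among them, where 16.2% of all tested genes passed higher and 14.8% lower. The summed level of 9 endothelial genes, 8 of which rose and none of which was at 0, was 100 to 146 FPKM in OIR and 57.8 to 76.9 FPKM in normoxic libraries. The 6 pericyte and smooth muscle genes all rose, with sums of 101 to 148 FPKM in OIR and 34.4 to 45.5 FPKM in normoxic libraries. All 5 astrocyte genes rose, with sums of 18.8 to 21.7 FPKM in OIR and 11.4 to 13.2 FPKM in normoxic libraries. The 3 tested of 5 fibroblast genes rose, and that list summed to 4.63 to 7.27 FPKM in OIR and 1.54 to 1.76 FPKM in normoxic libraries. Of 6 microglia genes 4 rose and none fell, with sums of 33.1 to 50.5 FPKM in OIR and 14.5 to 19.4 FPKM in normoxic libraries. The 5 gliosis genes given above rose as well. Of 8 Müller glia markers, 2 rose and 4 fell, none was at 0, and their sum was 899 to 1100 FPKM in OIR and 949 to 1160 FPKM in normoxic libraries. No rod, cone, ganglion cell, pigment epithelium or lens marker passed as higher. The part of these cells in the Fgfr1 rise was not tested.

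Fgfr2 was sparse, and its call depended on single libraries of both groups. It had 42 to 69 counts in each OIR library and 5 to 47 in each normoxic one. In CPM, this was 2.41 to 3.81 CPM, median 2.62 CPM, in OIR libraries, against 0.288 to 2.45 CPM, median 1.38 CPM, in normoxic libraries. Normoxic replicates 1 to 3 were low, at 0.288 to 1.01 CPM, and normoxic replicates 4 to 6 reached 1.74 to 2.45 CPM, so that the highest normoxic libraries overlapped the lowest OIR ones. Fgfr2 was 1.93-fold higher in OIR (log2 0.95 ± 0.34 SE, edgeR adjusted p = 0.0384). Within numbers 1 to 3 it was 3.55-fold higher (adjusted p = 6.0e-04), and within 4 to 6 the difference was 1.42-fold and did not pass (0.234). The difference between the sets did not pass (-1.32 ± 0.47 SE on the log2 scale, adjusted p = 0.0882).

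The call of Fgfr2 was also lost without OIR replicate 2 (adjusted p = 0.0618), OIR replicate 4 (0.0664), OIR replicate 6 (0.0823), normoxic replicate 1 (0.0802) or normoxic replicate 2 (0.0829), with log2 fold changes of 0.74 to 1.16 over all 12 libraries left out in turn. Over these alternatives and the others tried, its adjusted p ranged from 6.0e-04 to 0.234. Markers of the pigment epithelium parted the normoxic libraries in the same way. The summed level of 5 of these markers, none at 0, was 11.5 to 18.8 FPKM in OIR libraries, 3.05 to 4.23 FPKM in normoxic replicates 1 to 3 and 21.2 to 26.4 FPKM in normoxic replicates 4 to 6. None of the 5 passed the test between the groups. Unlike in Fgfr2, normoxic replicates 4 to 6 lay above every OIR library in this sum. The split was not particular to these markers. The ganglion cell sum was 221 to 266 FPKM in normoxic replicates 1 to 3 and 317 to 332 FPKM in normoxic replicates 4 to 6. Endothelial, gliosis and astrocyte sums were also lower in normoxic replicates 1 to 3 without overlap, while cone and Müller glia sums were higher there. The part of any of these markers in the Fgfr2 values was not tested. The gene model of Fgfr2 (ENSMUSG00000030849) runs from 129764181 to 132725079 on chromosome 7 and overlaps 70 other models, 55 of them with counts, so its count is less certain than that of the other members.

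**Figure D2:**
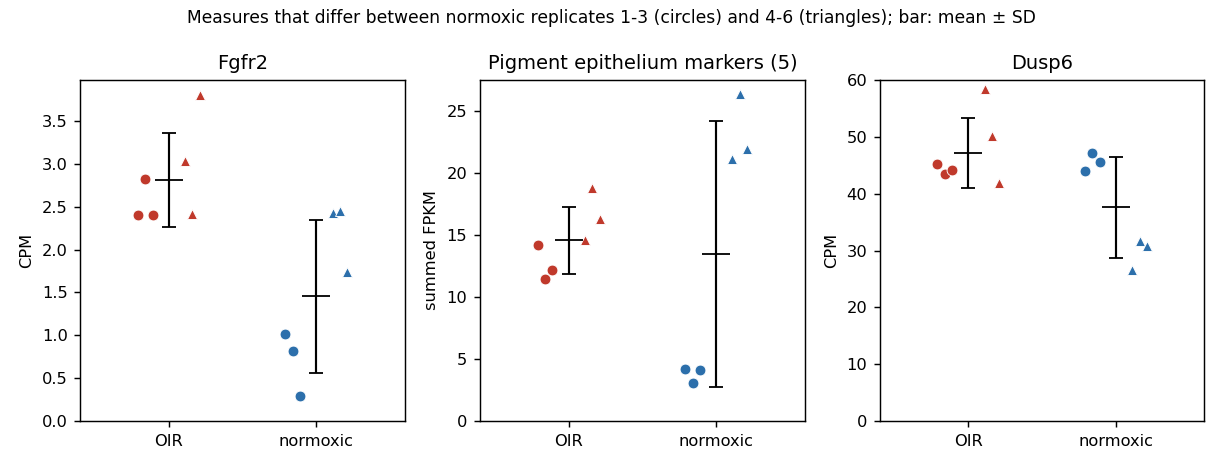
Fgfr2 in CPM, the summed FPKM of 5 pigment epithelium markers and Dusp6 in CPM, by library, with OIR left in red and normoxic right in blue. Circles are replicates 1 to 3, triangles replicates 4 to 6, bars mean ± SD over 6. Normoxic replicates 1 to 3 were the lowest libraries in Fgfr2 and in the marker sum, and normoxic replicates 4 to 6 were the lowest in Dusp6.

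Fgfr3 (ENSMUSG00000054252, chromosome 5, 33879018 to 33894412), the receptor gene known best for restraining bone growth, was sparse. It had 10 to 26 counts in each OIR library, with 102 in all, and 10 to 29 in each normoxic library, with 129 in all. This was 0.552 to 1.46 CPM, median 0.879 CPM, in OIR, against 0.516 to 1.67 CPM, median 1.28 CPM, in normoxic libraries. The groups overlapped and the test did not pass (log2 fold change -0.34 ± 0.31 SE, edgeR adjusted p = 0.452). This estimate was close to those of Fgf9 (-0.34 ± 0.06 SE) and Fgf1 (-0.40 ± 0.10 SE) but had a wider SE. A difference of that size in Fgfr3 can thus be neither claimed nor excluded. Normoxic replicates 1 to 3, at 1.47 to 1.67 CPM, lay above normoxic replicates 4 to 6, at 0.516 to 1.09 CPM.

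Levels of different genes were compared per gene length. In OIR retinas the order by deposited FPKM was Fgf2 with 13.3 ± 4.83, Fgf9 with 6.87 ± 0.29, Fgf1 with 4.97 ± 0.77, Fgfr1 with 4.71 ± 0.28, Fgfr2 with 0.272 ± 0.053 and Fgfr3 with 0.129 ± 0.047 FPKM (SD, n = 6). Of neighbours in this order, the libraries overlapped between Fgf1 and Fgfr1 and did not overlap elsewhere. In normoxic retinas the order was Fgf9 with 8.75 ± 0.80, Fgf1 with 6.59 ± 0.63, Fgfr1 with 2.99 ± 0.28, Fgf2 with 2.16 ± 0.19, Fgfr3 with 0.165 ± 0.062 and Fgfr2 with 0.141 ± 0.086 FPKM. Here only Fgfr3 and Fgfr2 overlapped. Fgf2 was thus the highest of the 3 ligands in every OIR library and the lowest of them in every normoxic library. The FPKM of Fgfr1 rests on a length of 9875 bases, while the table's length column gives 42843, and with that column Fgf2 stood above Fgfr1 in normoxic retinas too.

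As a share of the summed FPKM of the 3 ligands, Fgf2 made up 51.5 ± 10.3% in OIR and 12.3 ± 0.70% in normoxic retinas (SD, n = 6 each). Fgf9 made up 28.1 ± 5.29% in OIR and 50 ± 3.69% in normoxic retinas, and Fgf1 20.4 ± 5.44% in OIR and 37.7 ± 3.73% in normoxic retinas. The sum itself was 25.1 ± 4.27 FPKM in OIR and 17.5 ± 0.62 FPKM in normoxic retinas. Among the receptors, Fgfr1 held 92.1 ± 0.88% of the summed FPKM of the 3 receptors in OIR and 90.7 ± 0.91% in normoxic retinas. That sum of 3 was 5.11 ± 0.29 FPKM in OIR and 3.29 ± 0.30 FPKM in normoxic retinas. With Fgfr4 added to the pool, which was done after the values were seen, Fgfr1 held 83.1 ± 2.14% in OIR and 67.9 ± 5.04% in normoxic retinas, and Fgfr4 held 9.85 ± 1.87% in OIR and 25.1 ± 5.58% in normoxic retinas. With lengths from the table's length column, Fgf1 held 11.5 ± 3.45% of the 3 ligands in OIR and 23.4 ± 2.82% in normoxic retinas. These shares are descriptions and were not tested.

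**Figure D3:**
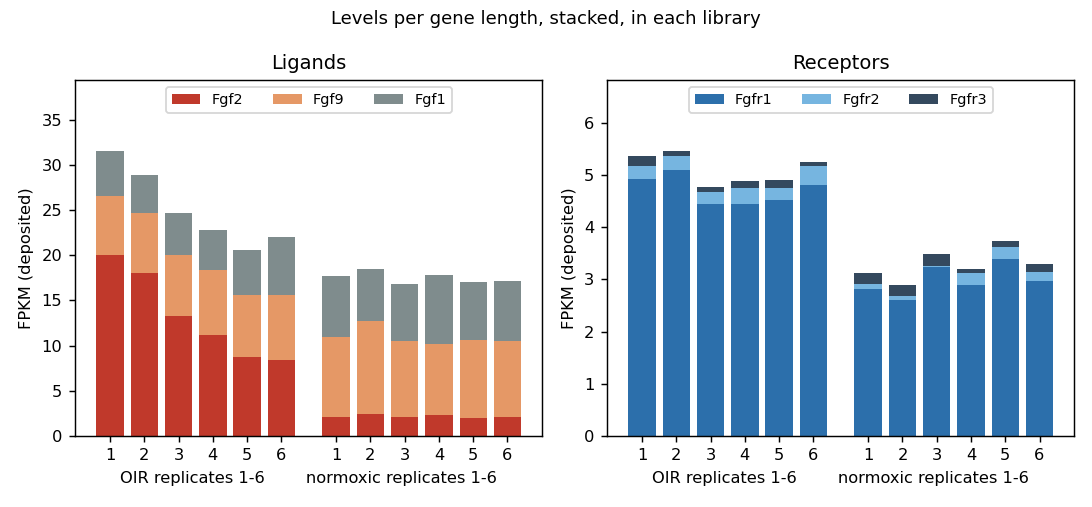
Deposited FPKM of the 3 ligand genes (left) and the 3 receptor genes (right), stacked for each library, with OIR replicates 1 to 6 left of normoxic replicates 1 to 6 in each panel. Fgf2 was the largest ligand block in all OIR libraries and the smallest in all normoxic libraries, and Fgfr1 filled 90.2 to 93.2% of every receptor bar.

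Genes known to be switched on by FGF receptor and ERK signalling were mostly higher in OIR. Of 13 tested genes of this list, 8 rose, 1 fell and 4 did not pass, where 16.2% of all tested genes passed higher and 14.8% lower. The median log2 fold change was 0.34 in this list against -0.01 over all tested genes. Other growth factors that use ERK switch on the same genes, so the list does not single out FGF. Spry1, which encodes an inhibitor of the RAS-ERK cascade, had 25.9 to 32.4 CPM in OIR and 11.9 to 16.3 CPM in normoxic libraries. It rose 2.08-fold without overlap between the groups (log2 1.06 ± 0.09 SE, edgeR adjusted p = 5.9e-08). Its relative Spry4 had 15.3 to 18.8 CPM in OIR and 10.1 to 12.3 CPM in normoxic libraries, a 1.54-fold rise (edgeR adjusted p = 2.1e-05). Etv5, an ETS transcription factor gene, had 48.2 to 57.3 CPM in OIR and 29.2 to 40.9 CPM in normoxic libraries, a 1.53-fold rise (4.1e-06).

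The remaining calls of this list were smaller. Dusp5, which encodes a nuclear ERK phosphatase, rose 1.35-fold (edgeR adjusted p = 2.5e-06), Spred1, an inhibitor of RAF activation, 1.19-fold (2.9e-04), and Il17rd, a membrane inhibitor of FGF receptors, 1.46-fold (0.0144). Within numbers 4 to 6 the call of Il17rd was lost (log2 fold change 0.34, adjusted p = 0.401). Spry2 rose 1.14-fold and Etv4, another ETS factor gene, 1.30-fold, both close to the threshold (0.0367 and 0.046). Both calls were lost when some single libraries were left out, with adjusted p up to 0.0892 for Spry2 and 0.116 for Etv4, and within numbers 1 to 3 that of Etv4 was 0.925. Spred3 fell by 0.32 on the log2 scale (0.0103), a call lost within numbers 4 to 6 (-0.21, 0.135). Spred2 (log2 fold change 0.14), Dusp4 (-0.03), Dusp6 (0.34) and Etv1 (0.21) did not pass, with adjusted p-values of 0.241, 0.886, 0.0508 and 0.0933 from edgeR.

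The 2 sets of replicate numbers differed in part of this list. Dusp6, the cytoplasmic ERK phosphatase gene often read as a gauge of FGF signalling, had a mean of 44.3 CPM in OIR and 45.6 CPM in normoxic libraries within numbers 1 to 3, and 50.2 CPM in OIR and 29.7 CPM in normoxic libraries within 4 to 6. It was 1.71-fold higher within 4 to 6 (edgeR adjusted p = 4.3e-05) and 0.972-fold within 1 to 3 (0.653), and the difference between the sets passed its own test (0.82 ± 0.12 SE on the log2 scale, adjusted p = 2.5e-04). Etv4 and Etv5 had the same sign of difference (0.75 and 0.33, adjusted p = 0.0273 and 0.0474). In Fgf2 the sign was the opposite, with the larger effect within numbers 1 to 3. Other markers parted the normoxic libraries as Dusp6 did. The sum of 4 cone markers, none at 0 and 1 of them lower in OIR, was 394 to 542 FPKM in OIR libraries, 653 to 696 FPKM in normoxic replicates 1 to 3 and 387 to 429 FPKM in normoxic replicates 4 to 6. The Müller glia sum was 1120 to 1160 FPKM in normoxic replicates 1 to 3 and 949 to 1020 FPKM in normoxic replicates 4 to 6. Their part in the Dusp6 values was not tested. Spry1 was higher within both sets, 2.28-fold and 1.93-fold, a difference that did not pass (adjusted p = 0.317).

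**Figure D4:**
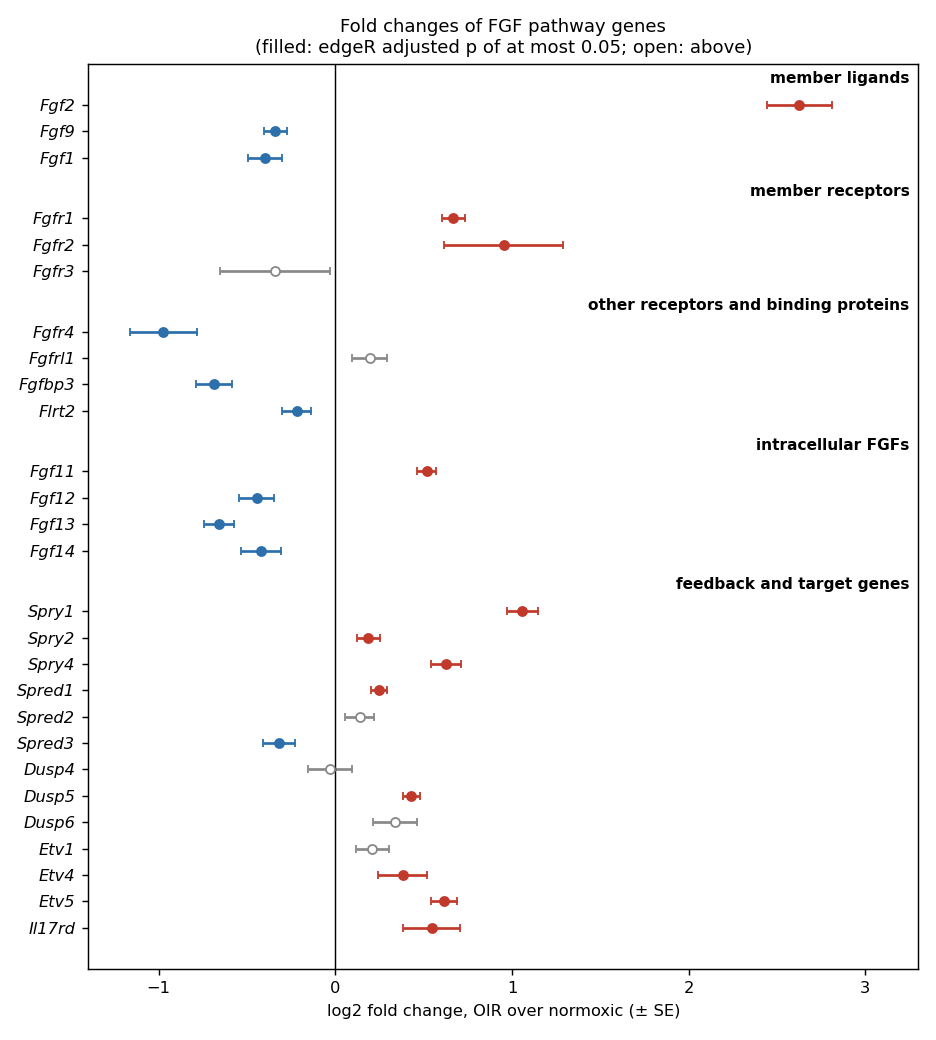
Log2 fold changes, OIR over normoxic, with SE bars, for the 6 members and for genes of 3 related groups. Filled points passed an edgeR adjusted p of 0.05 (red higher and blue lower in OIR), and open grey points did not. Fgf2 stood at 2.63, beyond every other gene drawn, and 8 of the 13 feedback and target genes lay to the right as filled points.

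Of the other FGF family genes, 28 in all, 18 had enough counts to be tested, and 1 rose, 7 fell and 10 did not pass. Over all tested genes, 16.2% passed higher and 14.8% lower. The median log2 fold change was -0.28 in these 18 genes against -0.01 over all tested genes. Fgf11 to Fgf14 encode FGF-like proteins that stay inside the cell and bind voltage-gated sodium channels. Fgf11 rose 1.43-fold, with 88.2 to 104 CPM in OIR and 60.7 to 72.8 CPM in normoxic libraries and no overlap (edgeR adjusted p = 1.1e-06). In contrast, Fgf13 fell by 0.66 on the log2 scale, with 28.8 to 39.6 CPM in OIR and 52.4 to 58.8 CPM in normoxic libraries and no overlap (7.6e-06). The fall of Fgf13 was larger within numbers 1 to 3 (-0.83) than within 4 to 6 (-0.51), and this difference passed its own test (adjusted p = 0.0452). Fgf12 fell by 0.45 and Fgf14 by 0.42 (0.0022 and 0.0087), both with overlapping groups. The call of Fgf14 was lost within numbers 4 to 6 (-0.23, 0.341).

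Fgfr4, the remaining kinase receptor gene, had a log2 fold change of -0.97 ± 0.19 (SE), with 1.62 to 2.66 CPM in OIR and 2.84 to 4.91 CPM in normoxic libraries and no overlap (edgeR adjusted p = 5.8e-04). Within numbers 4 to 6 its difference was -0.53 and did not pass (adjusted p = 0.186). Fgfbp3, which encodes a carrier that frees FGF from the matrix, fell by 0.69 (4.7e-05). Flrt2, a membrane protein gene of the FGF receptor partners, fell by 0.22 (0.0457), a call lost without any 1 of 7 libraries left out in turn. Flrt2 also did not pass within numbers 1 to 3 (-0.26, 0.0566) or within 4 to 6 (-0.18, 0.276). Nor did it pass without an expression filter (0.0679) or with limma (limma adjusted p = 0.0581 and 0.0593). Fgfrl1, which encodes a receptor without a kinase domain, did not pass (log2 fold change 0.19, adjusted p = 0.16). Of the other secreted ligands only Fgf3 passed, falling by 0.63 (0.0187), with means of 1.84 CPM in OIR and 2.88 CPM in normoxic libraries. It did not pass within either set of numbers alone. Among the untested ones, Fgf8 had 9 counts over the OIR and 57 over the normoxic libraries, and Fgf4, Fgf16 and Fgf20 had none in any library.

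The relay from the receptors inward was read from 19 genes of docking proteins, adaptors and the RAS-ERK cascade. Of these 19, 5 rose, 2 fell and 12 did not pass, with a median log2 fold change of 0.08, where 31.0% of all tested genes passed. Gab1, a docking protein gene, had 41.4 to 43.4 CPM in OIR and 28.2 to 33.0 CPM in normoxic libraries, a 1.40-fold rise (edgeR adjusted p = 1.8e-06). The adaptor gene Shc1 rose 1.26-fold (3.1e-04), Nras 1.35-fold (2.3e-04), the RAS exchange factor gene Sos1 1.15-fold (0.0264) and the phosphatase gene Ptpn11 1.10-fold (0.0175). Sos1 was 1.29-fold higher within numbers 1 to 3 (adjusted p = 2.5e-04) and 1.02-fold within 4 to 6 (0.823), a difference that passed its own test (0.0343), and its call was also lost without OIR replicate 1, 2 or 3 or normoxic replicate 1 (0.0547 to 0.0766). The call of Ptpn11 was lost within numbers 1 to 3 (0.0863). The 2 that fell were Araf, by 0.36 on the log2 scale (7.8e-04), and the docking gene Frs3, by 0.26 (0.0076). Araf fell by 0.51 within numbers 1 to 3 and by 0.18 within 4 to 6, a difference that passed its own test (0.00253). The call of Frs3 was lost within numbers 4 to 6 (-0.11, 0.385). Map2k1 and Map2k2, which encode MEK, did not pass (adjusted p = 0.067 and 0.996).

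FGF ligands bind heparan sulfate. Of 22 tested genes of its carriers and enzymes, 10 rose, 2 fell and 10 did not pass (median log2 fold change 0.14). Over all tested genes 16.2% passed higher and 14.8% lower. The list mixes carriers with enzymes of differing action, so its count gives no direction for FGF binding. Hspg2, which encodes the basement membrane proteoglycan perlecan, had 43.4 to 59.1 CPM in OIR and 9.68 to 15.4 CPM in normoxic libraries, a 4.54-fold rise (edgeR adjusted p = 7.2e-11). Gpc4, a glypican gene, rose 1.91-fold (5.5e-05), and the syndecan genes Sdc4 and Sdc3 rose 1.38-fold and 1.16-fold (3.3e-06 and 0.00103). Sulf1, which encodes an enzyme that removes sulfate groups from heparan sulfate, rose 1.24-fold (0.00126). In each of these 5 genes, picked for the smallest adjusted p of the list, the groups did not overlap. In the whole list of 22 the groups were apart in 6 genes with OIR above and in 1 with OIR below. Over all tested genes this held for 9.12% above and 7.31% below.

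The profiles most like those of the members over the 12 libraries were sought by the mean absolute difference in log2(CPM + 0.5), each gene centred on its own mean. Nearest to Fgf2 were Egr2, an early response transcription factor gene, at 0.21, Mrc1, the macrophage mannose receptor gene, at 0.211 and the chemokine gene Ccl2 at 0.226. Egr2, Mrc1 and Ccl2 had 344, 373 and 207 counts over the OIR libraries and 16, 6 and 2 over the normoxic ones. Their normoxic values thus rest on few counts and on the offset of 0.5. Their log2 fold changes were 4.37, 5.79 and 6.23, against 2.63 for Fgf2. The likeness is therefore one of values with the offset added, and does not hold for the size of the change. Nearest to Fgfr1 were Erf, an ETS repressor gene, at 0.07, the oxidative stress factor gene Nfe2l2 at 0.0739 and Ikbip at 0.0788. Nearest to Fgfr2 were Hrk, a pro-death BCL2 family gene, at 0.182, Tspan6 at 0.211 and Islr at 0.23.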

How the data were processed

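Sample titles gave the group and the replicate number. Libraries were made from the poly-A fraction of total RNA, per the labels' protocols. The tools named are Trimmomatic, HISAT2 (2.0.5) and HTSeq, with build GRCm39, per the submitters' processing notes. The sources used here give no annotation release, strand setting or read filter. The authors deposited whole-number counts per gene and FPKM, per the file headers. The FPKM of the 6 members equal the counts scaled by the library total and a fixed gene length that is shorter than the table's length column.

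OIR was compared with normoxic by the quasi-likelihood test of edgeR 4.0.16 in R 4.3.3, on counts scaled by TMM, after filterByExpr (at least 10 counts, at least 15 in total), with Benjamini-Hochberg adjustment over all 18275 genes tested and a threshold of 0.05. Every adjusted p in the text is edgeR's unless another tool is named. The difference between replicate numbers 1 to 3 and 4 to 6 was tested as an interaction in the same way. CPM are counts scaled to a library total of 1e6, and fold changes are OIR over normoxic. No libraries were merged, since the chi-square statistic between those of a group was 2.98 to 14.1 times its degrees of freedom. Counting error and depth limit the low genes.

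The members, the gene lists, the split by replicate number and the tests were chosen with earlier results of these data known. Named were the 6 members, Nudt6, every tested feedback and target gene, up to 5 genes past the threshold with the smallest adjusted p of each other pathway list, the 2 marker genes of each cell type with the highest FPKM (given here within summed levels), and for each member past the threshold with an absolute log2 fold change of at least 0.5 the 3 genes with the most similar profile. The alternatives were other scalings (median-of-ratios, library totals), other filters (none, or a group mean of 1 FPKM or more), a robust dispersion, DESeq2 version 1.42.0, limma version 3.58.1 on log2(FPKM + 1) and log2(FPKM + 0.1), a block for the replicate number, the replicate set as covariate, each set alone and leaving out each library. In a simulation of OIR against normoxic over 18275 genes, the test found 30% of 50 genes changed 1.25-fold and 58% of 50 changed 1.5-fold. It found 90% of 50 changed 2-fold and 100% of 50 changed 4-fold, and made 5 false calls. The changed genes were drawn from those with a mean above 1 CPM, and all others were left unchanged. In the data 31.0% of the tested genes passed, so these rates do not carry over to the real test or to sparse genes. Sequences came from RefSeq's promoter table of build GRCm38.p6, and no coordinates were converted between builds.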

Additional observations from a re-analysis of the deposited data

Results flagged for a closer look

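The effect of OIR differed between replicate numbers 1 to 3 and 4 to 6 (edgeR's interaction test, adjusted p at most 0.05) in Fgf2, in other pathway genes, in genes with a profile like that of Fgfr2, and in marker genes that stand in the summed levels. The log2 difference, numbers 4 to 6 minus 1 to 3, was -0.80 for Fgf2, 0.82 for Dusp6, 0.75 for Etv4, 0.33 for Etv5, 0.32 for Fgf13, -0.34 for Sos1, 0.33 for Araf, -0.84 for Tspan6 and -1.43 for Islr, the last 2 of which were chosen by their likeness to Fgfr2. Among the marker genes it was 0.51 for Glul, 0.32 for Clu, -0.95 for Gfap, 0.66 for Opn1sw, 0.96 for Opn1mw, -0.62 for Sncg, -2.05 for Rgr and -2.59 for Pmel. Over all tested genes 8.21% passed this test. The labels do not say what the replicate numbers mark.

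Single libraries stood apart from the other 5 of their group (by Dixon's criterion) in 10 of 150 screened groups of values, and chance flags about 1 in 20 groups. They were Fgfr4 in OIR replicate 4 (2.66 CPM), Hspg2 in normoxic replicate 6 (15.4 CPM), Gpc4 in OIR replicate 2 (10.4 CPM), Sdc3 in normoxic replicate 6 (113 CPM), Col3a1 in OIR replicate 6 (15.3 CPM), C1qa in OIR replicate 6 (22.6 CPM), Cryba1 in normoxic replicate 3 (11.8 CPM), Crygs in normoxic replicate 3 (6.22 CPM), Egr2 in normoxic replicate 6 (0.381 CPM) and Ccl2 in normoxic replicate 3 (0.115 CPM, the sole normoxic library with counts of this gene). No value of the 6 members was among them.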

How the results depend on the processing

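Fgf1, Fgf2 and Fgfr1 kept their direction and call under all 24 alternatives, with log2 fold changes of -0.49 to -0.35, 2.11 to 2.97 and 0.52 to 0.74. Fgf9 lost its call within numbers 4 to 6 alone, and Fgfr2 there and without 5 single libraries, as given in the report. Fgfr3 passed under none and was positive (0.17) within numbers 4 to 6. Of the 6 members, 3 passed within numbers 4 to 6 and 4 where a mean FPKM of at least 1 was required, which left out Fgfr2 and Fgfr3. With all 12 libraries and the other scalings, filters, tools and designs tried, 5 passed. Within numbers 4 to 6, 3671 of all genes and 4 of the other FGF family genes passed. Leaving out 1 library gave 4 to 5 members, 5072 to 5869 of all genes, 7 to 9 feedback and target genes, 11 to 13 heparan sulfate genes, 6 to 7 relay genes and 7 to 10 other family genes. With edgeR's robust dispersion, 0 members differed between the sets of replicate numbers by adjusted p and 3 by an unadjusted p under 0.05; without it, 1 did by adjusted p. No other tool was run on this difference. With counts per base of the length column, Fgfr1 made up 93.7% of the 3 receptors in OIR and 92.3% in normoxic retinas, and with Fgfr4 added to the pool (chosen after seeing the data) 83.1% in OIR and 67.9% in normoxic retinas. Reversed were the cone genes Opn1sw (-0.27 within 1 to 3) and Opn1mw (0.31 within 4 to 6) and the pigment epithelium gene Rgr (1.245 within 1 to 3), marker genes used in summed levels. Of 1792 values for 75 named genes under the alternatives, 1678 kept call and direction, 72 lost the call, 39 gained it and 3 reversed. The same replicate number did not pair libraries (correlations of same-numbered deviations -0.0272 to 0.123, the best match for 2 of 6). With the replicate block 5675 of all genes and 5 members passed, and Etv4, Flrt2 and Sos1 lost their calls (adjusted p = 0.0826, 0.054 and 0.053). Scalings shifted the median gene by at most 0.009 on the log2 scale downward. Depth limits Fgfr2 and Fgfr3.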
